A study of Homo sapiens with 12 samples.

Results

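The IL-1 and IL-6 family cytokines described here are 10 genes, *IL1A*, *IL1B*, *IL1RN*, *IL1RAP*, *IL18*, *IL33*, *IL6*, *IL6R*, *IL11* and *LIF*, taken by symbol from the 23346 genes of the deposited expression table. All 10 were found in the table, and 10 passed the filter on low values. The samples came from SW1990 and CFPAC-1, established human pancreatic adenocarcinoma cell lines, which were sorted with GCTM-5, an antibody against a carbohydrate-bearing surface antigen complex of ductal progenitors and pancreatic tumours. The 4 groups were GCTM-5 negative SW1990, GCTM-5 positive SW1990, GCTM-5 negative CFPAC-1 and GCTM-5 positive CFPAC-1 cells, with 3 samples in each and polyadenylated RNA sequenced from all 12. The gates kept strongly stained and unstained cells, so cells of intermediate staining were not measured, and the labels give no cytokine or other treatment for either line. The paper speaks of triplicate sorts but nothing says that these were separate cultures, so p-values measure the spread between these samples, which may be technical.

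Interleukin-1 alpha and interleukin-1 beta signal through a receptor made of IL1R1 and the accessory protein encoded by *IL1RAP*, and they switch on NF-kB and AP-1 dependent genes such as chemokines. The pathway carries its own brakes, among them the receptor antagonist encoded by *IL1RN*, which occupies IL1R1 without signalling, and IL1R2, a decoy receptor without a signalling domain. Interleukin-6, interleukin-11 and LIF belong to another family, whose receptors share the IL6ST (gp130) chain and act largely through JAK kinases and STAT3. Both families are best known from inflammation, and in pancreatic tumours they take part in the exchange of signals between carcinoma cells, fibroblasts and leukocytes.

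Expression was given as RPKM, reads scaled to the length of the gene and the size of the library, which allows levels of different genes to be set side by side per length. The reads behind each value were recovered from the table, and library totals ran from 9969697 reads in GCTM-5 positive CFPAC-1 replicate 3 to 26159330 in GCTM-5 positive CFPAC-1 replicate 1. Changes were fitted with limma on log2 (RPKM + 0.1) over 16236 genes, a scale that understates changes of genes near 0.1 RPKM. A gene was called when it differed over 2-fold with an unadjusted p under 0.01 (2-sided), which are the fold and p of the study, and p-values were adjusted over all 16236 genes by the Benjamini-Hochberg method. In each line, 3 samples were set against 3, for which an exact permutation test could not give a p below 0.1. In sorted populations, fewer cells that express a gene and less RNA per cell cannot be told apart.

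The lines differed in the levels at which they expressed these cytokines. In GCTM-5 negative SW1990 cells, the order of mean RPKM was *IL1B* (109), *LIF* (98.3), *IL1A* (57.7), *IL18* (43.2), *IL1RN* (17.6), *IL33* (8.87), *IL1RAP* (6.56), *IL6* (5.76), *IL11* (2.97) and *IL6R* (0.771). The sample ranges of *IL1B* and *LIF* overlapped, as did those of *IL33*, *IL1RAP* and *IL6*, so these neighbours were not separated. In GCTM-5 positive SW1990 cells, *LIF* (184) and *IL1RN* (142) stood first, with overlapping samples, followed by *IL1B* (82.6), *IL1A* (60.2) and *IL18* (58.8), whose samples also overlapped. Samples of *IL1RN* overlapped those of *IL1B* there too. In CFPAC-1, *LIF* led in both populations (274 in negative and 228 in positive cells), followed by *IL18* (56.1 and 73.2). *LIF* lay above 99.4% of the genes in the table in GCTM-5 negative CFPAC-1 cells, whereas *IL1A*, *IL1B* and *IL1RN* lay above 31.6%, 33.0% and 35.3% of them. *IL33* had no reads in any GCTM-5 negative CFPAC-1 sample, which allows up to 3 reads per library, and 2 reads in all in GCTM-5 positive CFPAC-1 samples.

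**Figure D1:**
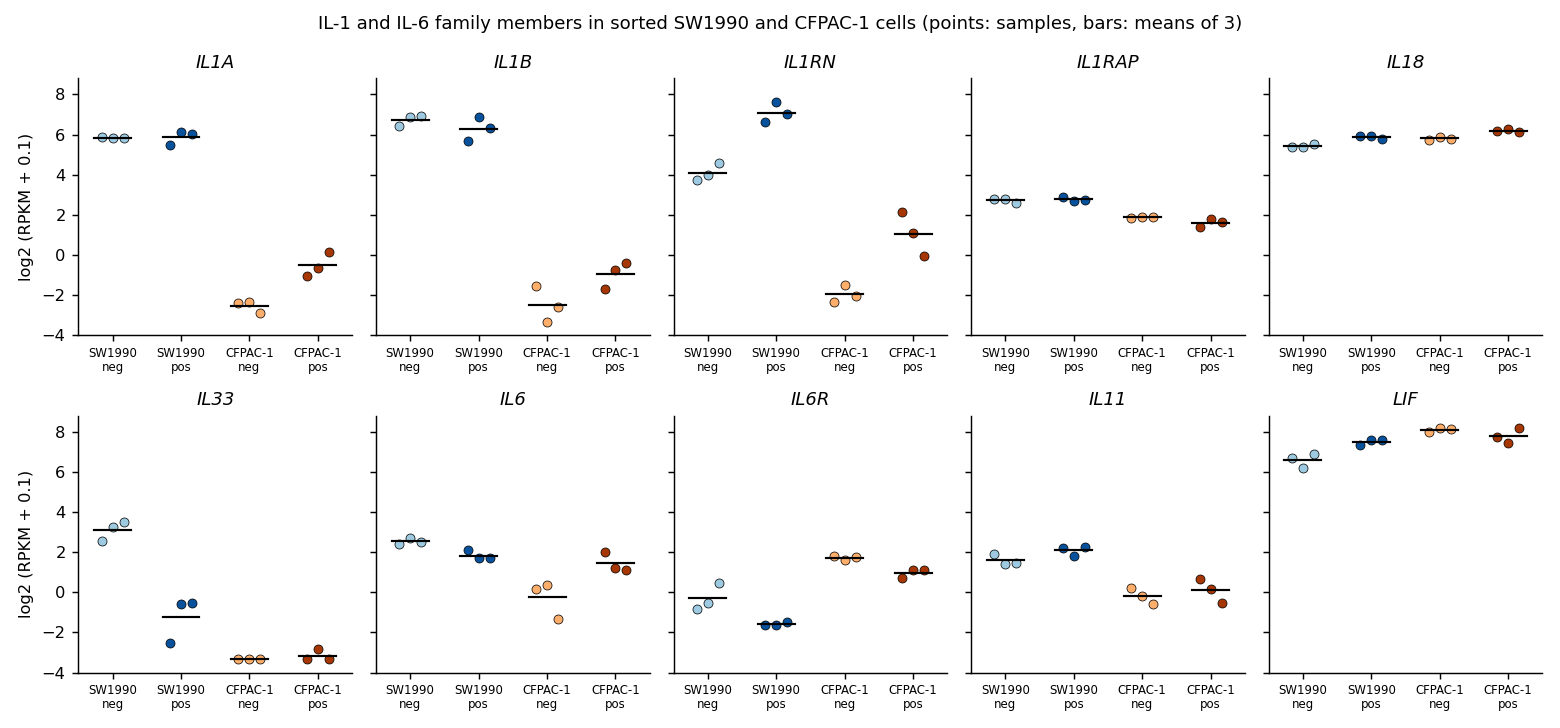
Each panel plots 1 gene as log2 (RPKM + 0.1) in the 12 samples, grouped by line and GCTM-5 population, with points for samples and a bar for the mean of 3. *IL1A*, *IL1B* and *IL1RN* separated the lines in both populations, *IL1RN* rose from negative to positive cells in both lines, and *LIF* and *IL18* were high in all 4 groups.

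The receptor antagonist *IL1RN* was the 1 member called higher in GCTM-5 positive cells of both lines. In SW1990, it was at 13.1, 16.0 and 23.7 RPKM in the 3 negative samples and at 100, 197 and 129 RPKM in the 3 positive samples. Every positive sample lay far above every negative one, with 568 to 884 reads against 4105 to 7052. The log2 fold change was 2.99 (SE 0.46, adjusted p = 0.000433, limma). The mean went from 17.6 ± 5.46 to 142 ± 49.6 RPKM (SD, n = 3 each). The gene lies on the plus strand of chromosome 2 (113856892 to 113891593, GRCh37), in the same cluster as *IL1A* (113531502 to 113542070) and *IL1B* (113587328 to 113594393), which are both on the minus strand.

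The agonists *IL1A* and *IL1B* did not rise with their antagonist in SW1990. *IL1A* was at 59.6, 56.6 and 56.8 RPKM in negative and at 44.5, 70.2 and 65.8 RPKM in positive samples, which overlapped, with a log2 fold change of 0.03 (SE 0.28, adjusted p = 0.958, limma). *IL1B* was at 87.5, 117 and 121 RPKM in negative and at 51.1, 117 and 79.8 RPKM in positive samples, with a log2 fold change of -0.46 (SE 0.45, adjusted p = 0.498). The balance between antagonist and agonists therefore differed between the populations in every SW1990 sample. The ratio of *IL1RN* to *IL1B* RPKM was 0.150, 0.137 and 0.195 in negative samples, where the agonist was in excess. In positive samples it was 1.96, 1.68 and 1.61, with the antagonist in excess. Set against *IL1A*, *IL1RN* went from 0.220, 0.282 and 0.416 to 2.25, 2.80 and 1.96. In CFPAC-1, on few reads, *IL1RN* over *IL1A* was 1.11, 2.77 and 4.16 in negative and 11.3, 3.87 and 0.831 in positive samples, which overlapped. *IL1RN* over *IL1B* overlapped there too, at 0.405 and 2.13 in negative replicates 1 and 3 and 21, 4.1 and 1.28 in positive samples. These ratios are of RNA per length and say nothing of secreted protein.

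*IL33*, a nuclear alarmin released from damaged epithelium and endothelium, moved the other way and had the largest change of the members in SW1990. Negative samples held 5.81, 9.46 and 11.3 RPKM and positive samples 0.0762, 0.566 and 0.584 RPKM, on 323 to 596 and 4 to 28 reads. The populations did not overlap, with a log2 fold change of -4.32 (SE 0.46, adjusted p = 2.42e-05, limma). Replicate 1 of the positive samples was the lowest, and without it the value was -3.68 (adjusted p = 1.03e-05). Over 22 alternatives, the adjusted p of *IL33* ran from 6.46e-07 to 0.00592. *IL33* lies on the plus strand of chromosome 9 (6215786 to 6257983, GRCh37). The 5 endothelial markers summed to 14.9 to 18.9 RPKM in negative and 1.47 to 2.05 RPKM in positive SW1990 samples, with *CDH5* as the one of them at 1 RPKM or more in each population, and their part in the *IL33* result was not tested.

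The remaining IL-1 family members changed little in SW1990. *IL18*, an inflammasome-processed relative of interleukin-1 that is made by many epithelia (chromosome 11, 112013976 to 112034819, minus strand), was at 42.3, 41.7 and 45.4 RPKM in negative and at 61.7, 60.0 and 54.6 RPKM in positive samples. All positive samples were higher, by 0.44 on the log2 scale (SE 0.08, adjusted p = 0.00115, limma), which is under the 2-fold threshold. The co-receptor gene *IL1RAP* (chromosome 3, 190231840 to 190377539, plus strand) was at 6.0 to 6.91 RPKM in negative and 6.26 to 7.32 RPKM in positive samples, with a log2 fold change of 0.04 (SE 0.13, adjusted p = 0.874).

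Of the IL-6 family, *LIF* and *IL6R* moved in opposite directions between the SW1990 populations. *LIF*, which acts through LIFR and IL6ST (chromosome 22, 30636442 to 30642748, minus strand), was at 103, 73.4 and 118 RPKM in negative and at 161, 195 and 195 RPKM in positive samples. All positive samples were higher, with a log2 fold change of 0.92 (SE 0.20, adjusted p = 0.00386, limma), just under the 2-fold threshold. It passed that threshold without negative replicate 3 (1.07, adjusted p = 0.00355) or without positive replicate 1 (1.02, adjusted p = 0.00634), and its adjusted p was 0.000675 to 0.0216 over 22 alternatives. *IL6R*, the interleukin-6 binding chain (chromosome 1, 154377669 to 154441926, plus strand), was at 0.467, 0.589 and 1.26 RPKM in negative and at 0.220, 0.224 and 0.258 RPKM in positive samples. The groups did not overlap and *IL6R* was called lower, at -1.28 (SE 0.28, adjusted p = 0.00489), from a level that was already the lowest of the 10 genes. Without negative replicate 3, its highest sample, the change was -0.91 (adjusted p = 0.0101) and no longer over 2-fold. Over 22 alternatives the adjusted p of *IL6R* was 0.00215 to 0.0436, and it was called in 18.

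*IL6* and *IL11* did not pass the test in SW1990. *IL6* (chromosome 7, 22765503 to 22771621, plus strand) was at 5.26, 6.35 and 5.68 RPKM in negative and at 4.22, 3.14 and 3.15 RPKM in positive samples, so all positive samples were lower. Its log2 fold change of -0.71 (SE 0.39) had an adjusted p of 0.203 by limma, with 0.0246 to 0.362 over 22 alternatives. *IL11* (chromosome 19, 55875750 to 55881831, minus strand) was at 2.57 to 3.68 RPKM in negative and 3.45 to 4.70 RPKM in positive samples, which overlapped (0.50, SE 0.30, adjusted p = 0.249). In all, 3 of the 10 members were called in SW1990, 1 higher and 2 lower, against 12.1% of all genes (4.59% higher and 7.48% lower). An adjusted p under 0.05 was reached by 5 members, against 28.2% of all genes. The samples did not overlap for 6 members, 3 of them higher and 3 lower in positive cells, against 43.3% of all genes (17.9% higher and 25.4% lower). The median log2 fold change of the members was 0.04, and that of all genes was -0.04.

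In CFPAC-1, the 4 members called were all higher in GCTM-5 positive cells, but 3 of these (*IL1A*, *IL1B* and *IL1RN*) started from a few reads per sample. Over all genes, 9.78% were called in this line, 5.65% higher and 4.13% lower. *IL1RN* was at 0.0972, 0.260 and 0.142 RPKM in negative samples (4 to 12 reads) and at 4.29, 2.04 and 0.854 RPKM in positive samples (237, 81 and 18 reads). The positive samples were all higher but spread widely among themselves. The log2 fold change was 3.01 (SE 0.46, adjusted p = 0.000544, limma). Under 22 alternatives it was 1.41 to 3.76, all called, with the lowest value at a pseudocount of 1.

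The agonist *IL1A* was higher in every GCTM-5 positive CFPAC-1 sample but stayed near or under 1 RPKM. It was at 0.0877, 0.0937 and 0.0343 RPKM (5, 6 and 2 reads) in negative and at 0.379, 0.528 and 1.03 RPKM (29, 29 and 30 reads) in positive samples. The log2 fold change was 2.04 (SE 0.28, adjusted p = 0.000277, limma), and with a pseudocount of 1 it was 0.60 (adjusted p = 0.0164) and not called, the highest adjusted p of its 22 alternatives, which began at 0.000209. As a ratio of reads to library totals, *IL1A* was 7.55 times higher, with a 95% exact counting interval of 4.20 to 14.7. *IL1B* rested on fewer reads still, 7, 0 and 2 in negative samples (0.240, 0 and 0.0670 RPKM) and 8, 14 and 10 in positive samples (0.204, 0.498 and 0.670 RPKM). Here the groups overlapped, and the call (1.54, SE 0.45, adjusted p = 0.0185) was lost under 9 of 22 alternatives, with adjusted p from 0.00530 to 0.234. Among these were the fits without negative replicate 2 (1.12, adjusted p = 0.0801), without negative replicate 3 (1.49, adjusted p = 0.0562), without positive replicate 2 (1.44, adjusted p = 0.0514) and without positive replicate 3 (1.26, adjusted p = 0.0670).

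*IL6* rose in GCTM-5 positive CFPAC-1 cells to levels that overlapped those of positive SW1990 samples. Negative samples held 1.04, 1.2 and 0.297 RPKM (24, 31 and 7 reads) and positive samples 3.94, 2.25 and 2.03 RPKM (122, 50 and 24 reads). No samples overlapped, and the log2 fold change was 1.70 (SE 0.39, adjusted p = 0.00533, limma). Fitted on CFPAC-1 alone, it was not called (adjusted p = 0.0591), the highest of 22 alternatives that began at 0.00357. *IL18* was at 53.1, 59.4 and 55.8 RPKM in negative and at 71.6, 77.0 and 71.1 RPKM in positive samples, higher in all 3 by 0.38 on the log2 scale (SE 0.08, adjusted p = 0.00298) and under the 2-fold threshold.

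No other member passed the test in CFPAC-1. *LIF* was at 252, 289 and 281 RPKM in negative and at 213, 176 and 295 RPKM in positive samples, which overlapped (-0.30, SE 0.20, adjusted p = 0.262, limma). *IL6R* was at 3.40, 2.94 and 3.32 RPKM in negative and at 1.53, 2.05 and 2.08 RPKM in positive samples. All positive samples of *IL6R* were lower, yet the change of -0.75 (SE 0.28) had an adjusted p of 0.0550, with 0.00274 to 0.171 over 22 alternatives. *IL1RAP* was at 3.51 to 3.68 RPKM in negative and 2.54 to 3.41 RPKM in positive samples, and *IL11* at 0.575 to 1.05 and 0.597 to 1.51 RPKM. For *IL33*, both populations were at or under 3 reads per sample, so no fold change is given. An adjusted p under 0.05 was reached by 5 members, against 36.5% of all genes. Samples did not overlap for 4 members that were higher and 2 that were lower, against 48.5% of all genes (28.1% higher and 20.4% lower). The median log2 fold change of the members was 0.33 in CFPAC-1, against 0.05 over all genes. The split of calls over all genes moved with the scaling in this line, where 57.7% of called genes were higher as deposited and 45.8% after each sample was centred on its median, and all 4 members stayed called after centring.

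**Figure D2:**
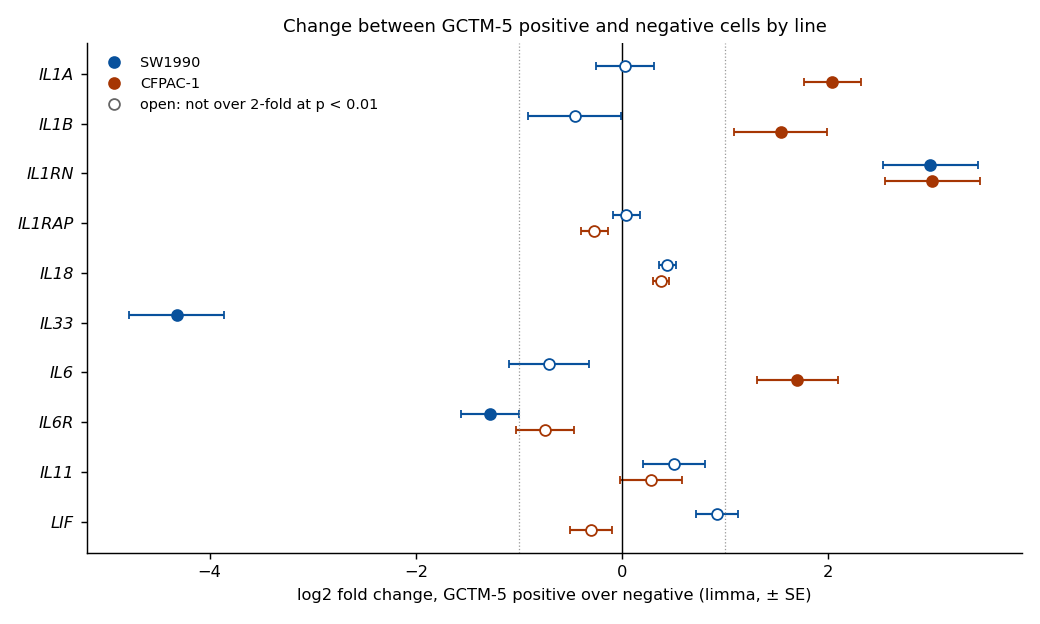
The plot gives the log2 fold change of GCTM-5 positive over negative cells (limma, bars are SE) for each member in SW1990 and CFPAC-1, with filled points for members over 2-fold at an unadjusted p under 0.01. *IL1RN* sits at 2.99 and 3.01 in the lines, while *IL1A*, *IL1B* and *IL6* are called in CFPAC-1 alone and *IL33* and *IL6R* in SW1990 alone. *IL33* in CFPAC-1 is not drawn because both populations were at or under 3 reads per sample.

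The difference between the lines was tested for each member as an interaction, SW1990 change minus CFPAC-1 change. The test called 5 of 10 members, 1 positive and 4 negative, against 14.2% of all genes (5.33% positive and 8.84% negative), and the same number had an adjusted p under 0.05 (26.9% of all genes). *IL1A* differed by -2.0 (SE 0.40, adjusted p = 0.00306, limma), but only by -0.56 (adjusted p = 0.100) with a pseudocount of 1. *IL6*, whose positive samples were lower in SW1990 and higher in CFPAC-1, differed by -2.42 (SE 0.55, adjusted p = 0.00673), and was called under all 21 alternatives. *LIF*, with higher positive samples in SW1990 only, differed by 1.22 (SE 0.28, adjusted p = 0.00699), also under all 21.

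The other called differences were those of *IL1B* and *IL33*. That of *IL1B* (-2.0, SE 0.63, adjusted p = 0.0349) held in 5 of 21 alternatives, with an adjusted p of 0.00896 to 0.143. It was lost without any one of the 3 negative SW1990 samples, positive SW1990 replicates 1 and 3, negative CFPAC-1 replicates 2 and 3, or positive CFPAC-1 replicates 2 and 3, between -2.15 and -1.58. For *IL33* the fitted difference of -4.48 (SE 0.65, adjusted p = 0.000441) depends on the pseudocount, since CFPAC-1 was at the limit of detection, and it was called under all 21 alternatives (adjusted p 2.46e-05 to 0.0236) and was -3.84 without positive SW1990 replicate 1. *IL6R* was called in SW1990 and not in CFPAC-1, yet its difference was -0.53 (SE 0.40, adjusted p = 0.363) and not called. *IL1RN* differed by -0.02 between the lines (SE 0.66, adjusted p = 0.988), an estimate too imprecise to show equal changes.

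The other inhibitory genes of the IL-1 system were examined next, from a list of family ligands and one of family receptors. *IL1R2*, the decoy receptor, and *IL36RN*, the antagonist of the interleukin-36 receptor, were the genes of those lists that were called in the same direction in both lines, and both were higher in GCTM-5 positive cells. Other inhibitory genes of the lists were not. *SIGIRR*, an inhibitory receptor, was lower in every positive SW1990 sample, at 15.5 to 18.1 RPKM in negative and 7.98 to 10.5 RPKM in positive samples (-0.85, SE 0.18, adjusted p = 0.00425, limma), under the 2-fold threshold. It had a change of -0.10 in CFPAC-1 (adjusted p = 0.708). *IL18BP*, which neutralises interleukin-18, had changes of -0.16 and -0.45 in SW1990 and CFPAC-1 (adjusted p = 0.586 and 0.0793), and *IL37*, an inhibitory family cytokine, had overlapping samples in both lines on at most 12 reads each. *IL1R2* had 3, 0 and 2 reads in negative and 23, 15 and 38 reads in positive SW1990 samples. As reads over library totals, this was 17.3 times higher (95% exact counting interval 7.09 to 54.8). In CFPAC-1, it was at 0.359, 0.0580 and 0 RPKM in negative and at 1.89, 1.35 and 0.891 RPKM in positive samples, with a log2 fold change of 2.88 (SE 0.52, adjusted p = 0.00149, limma). Levels of *IL1R2* thus stayed below 2 RPKM in all samples, and the positive samples were higher in each line. *IL36RN* was at 0.0347, 0.123 and 0.242 RPKM in negative and at 0.589, 1.37 and 1.09 RPKM in positive SW1990 samples (2.29, SE 0.39, adjusted p = 0.000875). It had no reads in negative and 14, 10 and 2 reads in positive CFPAC-1 samples, where it was at least 2.87-fold higher against a limit of 3 reads per library. *IL1RL2*, the gene of the interleukin-36 receptor, had at most 1 read in any sample.

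**Figure D3:**
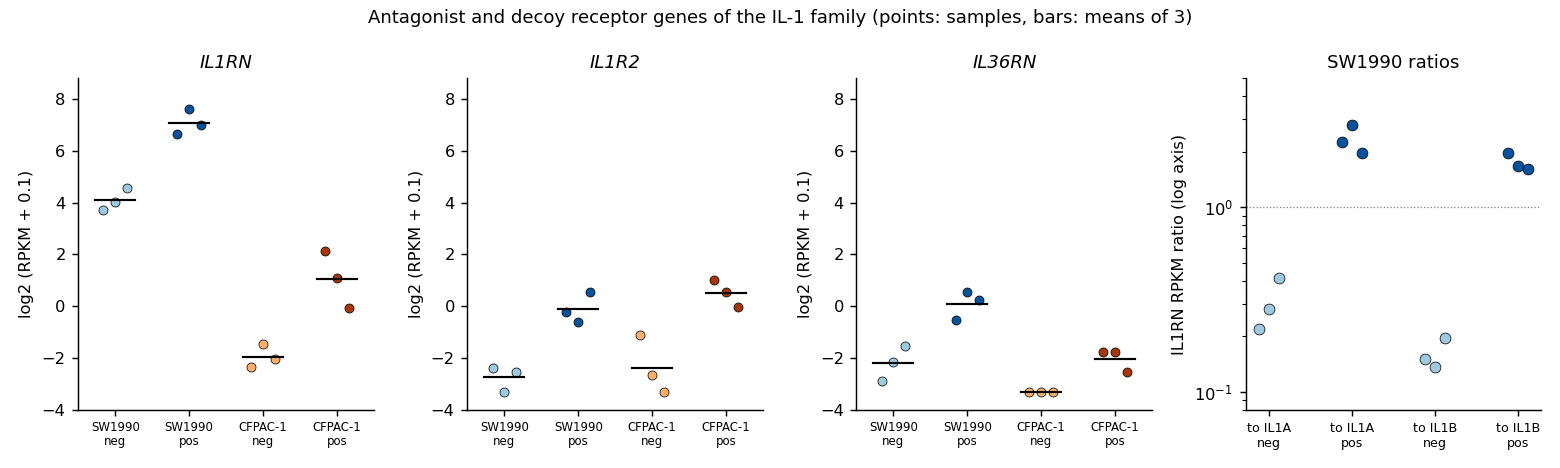
The left panels plot *IL1RN*, *IL1R2* and *IL36RN* as log2 (RPKM + 0.1) in the 12 samples, with points for samples and bars for means of 3, and the right panel plots the ratio of *IL1RN* RPKM to *IL1A* or *IL1B* RPKM in SW1990 on a log axis with a dotted line at 1. Positive samples lie above negative ones for each gene in each line, and the ratios pass from below 1 in negative to above 1 in positive samples.

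The sequences before the transcription starts of the members called in CFPAC-1 are shown because these 4 genes were each called higher in its GCTM-5 positive cells. The samples of *IL1B* overlapped between the populations, and shared regulation was not tested. They are 250 bases each, 5′ to 3′ on the gene's own strand, from RefSeq on GRCh38.p14, ending at the base before the start: *IL1RN* at chr2:113117721-113117970 (plus strand, the first of its 3 listed starts), *IL1A* at chr2:112784494-112784743 (minus strand, the first of 2), *IL1B* at chr2:112836780-112837029 (minus strand) and *IL6* at chr7:22726950-22727199 (plus strand). Capitals mark letters that match any of 4 motifs on either strand, the NF-kB motif, TGANTCA for AP-1, TTCNNNGAA for STAT factors and TATAAA for a TATA box.
IL1RN: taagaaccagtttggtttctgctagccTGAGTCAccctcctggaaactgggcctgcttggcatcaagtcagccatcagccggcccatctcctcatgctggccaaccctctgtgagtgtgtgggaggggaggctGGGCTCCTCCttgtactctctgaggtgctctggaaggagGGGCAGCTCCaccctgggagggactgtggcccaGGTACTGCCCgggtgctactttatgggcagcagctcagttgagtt
IL1A: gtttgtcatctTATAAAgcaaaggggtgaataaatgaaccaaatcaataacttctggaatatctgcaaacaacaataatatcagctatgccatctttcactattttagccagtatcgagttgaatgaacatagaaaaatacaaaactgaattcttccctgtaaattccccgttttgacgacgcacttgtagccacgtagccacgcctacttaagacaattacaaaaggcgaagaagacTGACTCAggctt
IL1B: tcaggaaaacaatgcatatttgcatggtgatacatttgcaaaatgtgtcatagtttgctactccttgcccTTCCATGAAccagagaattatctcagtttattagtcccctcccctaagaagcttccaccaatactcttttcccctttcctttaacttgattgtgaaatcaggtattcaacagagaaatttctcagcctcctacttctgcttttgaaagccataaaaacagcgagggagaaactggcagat
IL6: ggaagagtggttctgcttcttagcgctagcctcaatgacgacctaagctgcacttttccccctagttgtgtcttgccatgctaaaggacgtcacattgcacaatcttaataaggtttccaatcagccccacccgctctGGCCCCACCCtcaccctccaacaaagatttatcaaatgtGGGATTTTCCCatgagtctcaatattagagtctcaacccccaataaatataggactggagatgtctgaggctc

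Of the 10 members, 8 matched an entry of the promoter table, with 12 windows in all, and *IL18* and *LIF* did not. AP-1 letters were found in 4 of the 12 windows, before both starts of *IL1A* and before *IL1RN* and *IL11*, against 6.57% of the 35116 promoters of the same length. The *IL1A* windows overlap and share the match TGACTCA, which is thus counted in both. In *IL1RN* the match TGAGTCA begins 223 bases before the start (-223), in *IL1A* TGACTCA begins at -12, and in *IL11* TGAGTCA begins at -96. NF-kB letters were found for *IL1RN*, *IL1RAP*, *IL6* and *IL6R*, and in *IL6* the matches on the opposite strands overlap in the run GGGATTTTCCC. Such letters are common, since 54.4% of all promoters hold them. The STAT letters were found for *IL1B* alone (6.57% of all promoters), and neither start of *IL33* had a match to any of the 4 motifs. A match is a description of the letters in these windows, and no binding was measured.

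Set against each other, SW1990 cells expressed far more of the interleukin-1 agonists than CFPAC-1 cells, whichever population was compared. Among GCTM-5 negative cells, 8 of 10 members were called, 6 higher and 2 lower in SW1990, against 36.9% of all genes (21.9% higher and 15.0% lower). Means of *IL1A* were 57.7 ± 1.65 and 0.0719 ± 0.0327 RPKM (SD, n = 3 each), a ratio of 802, and means of *IL1B* 109 ± 18.3 and 0.102 ± 0.124 RPKM, a ratio of 1059.9. Since the CFPAC-1 values rest on 13 and 9 reads in all, the size of these ratios is imprecise. *IL1RN* was 106 times and *IL33* at least 163-fold higher in negative SW1990 cells, the latter against a limit of 3 reads per library. *IL6* (6.82 times) and *IL11* (3.68 times) were also higher, and *LIF* and *IL6R* were lower, with ratios of 0.359 and 0.239. All 10 members had an adjusted p under 0.05 (68.9% of all genes) and no overlap of samples, 7 higher and 3 lower (75.2% of all genes, 43.8% higher and 31.4% lower). *IL1RAP* (0.85, adjusted p = 8.92e-05) and *IL18* (-0.38, adjusted p = 0.00101) differed by less than 2-fold.

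Among GCTM-5 positive cells, 7 members were called, 6 higher and 1 lower in SW1990, against 28.5% of all genes (14.8% higher and 13.7% lower). *IL1A* (6.41 on the log2 scale, SE 0.28), *IL1B* (7.24, SE 0.45), *IL1RN* (6.04, SE 0.46) and *IL11* (1.99, SE 0.30) were higher and *IL6R* was lower (-2.56, SE 0.28). *IL1RAP* was higher by 1.16 (SE 0.13), and by 0.96, under the 2-fold threshold, with a pseudocount of 1. *IL33*, on 58 reads in SW1990 and 2 in CFPAC-1, was 29.4 times higher as reads over library totals, with a 95% exact counting interval of 7.79 to 249, and its fitted value of 1.95 became 0.45 (adjusted p = 0.0620) with a pseudocount of 1. *IL6* and *LIF*, which were called between the negative populations, were not called here (0.39, adjusted p = 0.40, and -0.28, adjusted p = 0.227). An adjusted p under 0.05 was reached by 8 members (62.3% of all genes), and samples did not overlap for 6 that were higher and 2 that were lower (63.9% of all genes, 33.9% higher and 30.0% lower). These line comparisons use the same samples as the comparisons within each line. Centring each sample on its median moved the median over all genes from 0.194 to 0.006 on the log2 scale between negative cells and from -0.148 to 0.00081 in the difference between lines, and after it 8, 7 and 4 members were called between negative cells, between positive cells and in the difference.

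Receptor genes for these cytokines were measured in both lines, except that *IL18RAP*, a signalling chain of the interleukin-18 receptor, had at most 2 reads in any sample. *IL1R1*, the signalling receptor for both agonists, was at 7.45 to 10.2 RPKM in negative and 6.16 to 14.3 RPKM in positive SW1990 samples, and at 19.2 to 19.7 and 14.3 to 16.3 RPKM in CFPAC-1, and it was not called in either line. Of the 5 tested IL-1 family receptor genes other than *IL1RAP*, 1 was called higher (*IL1R2*) and 1 lower in positive SW1990 cells, and 2 higher in positive CFPAC-1 cells (*IL1R2* and *IL1RL1*). The shares over all genes were 4.59% higher and 7.48% lower in SW1990, and 5.65% higher in CFPAC-1. The one lower in SW1990 was *IL18R1*, the interleukin-18 receptor, at 0.705, 0.817 and 0.739 RPKM in negative and 0.205, 0.385 and 0.289 RPKM in positive samples (-1.14, SE 0.23, adjusted p = 0.00281, limma). *IL1RL1*, the interleukin-33 receptor, was at 0.566, 0.106 and 0.116 RPKM in negative and at 0.743, 0.742 and 4.28 RPKM in positive CFPAC-1 samples, where a single sample stood far above the rest (2.24, SE 0.62, adjusted p = 0.0149).

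Of the 6 tested IL-6 family receptor genes other than *IL6R*, 4 were called lower in GCTM-5 positive SW1990 cells and none higher, with a median log2 fold change of -1.18. Over all genes, 7.48% were called lower and 4.59% higher in SW1990, with a median of -0.04. *IL6ST*, the shared signalling chain, was at 46.6, 56.9 and 50.9 RPKM in negative and at 24.8, 19.99 and 20.9 RPKM in positive samples (-1.23, SE 0.13, adjusted p = 1.76e-05, limma). *LIFR*, the chain that binds LIF, went from 3.77, 4.35 and 4.72 RPKM to 1.58, 1.73 and 1.61 RPKM (-1.33, SE 0.14, adjusted p = 1.70e-05). The others were *IL27RA* (-1.49, SE 0.20, adjusted p = 0.000152) and *IL31RA* (-1.13, SE 0.30, adjusted p = 0.0144), the latter on 0 to 20 reads per sample. In SW1990, then, *LIF* was higher in positive samples while its receptor chains were lower. In CFPAC-1, *LIFR* was the 1 receptor of this list that was called, at 30.2, 34.3 and 40.6 RPKM in negative and 13.2, 16.6 and 14.3 RPKM in positive samples (-1.24, SE 0.14, adjusted p = 7.23e-05). *IL6ST* was lower in all positive CFPAC-1 samples as well, by -0.37 (SE 0.13, adjusted p = 0.0387), under the 2-fold threshold. *OSMR*, the oncostatin M receptor, was at 14.5 to 17.1 RPKM in SW1990 and 46.0 to 61.2 RPKM in CFPAC-1 samples and was not called in either line.

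**Figure D4:**
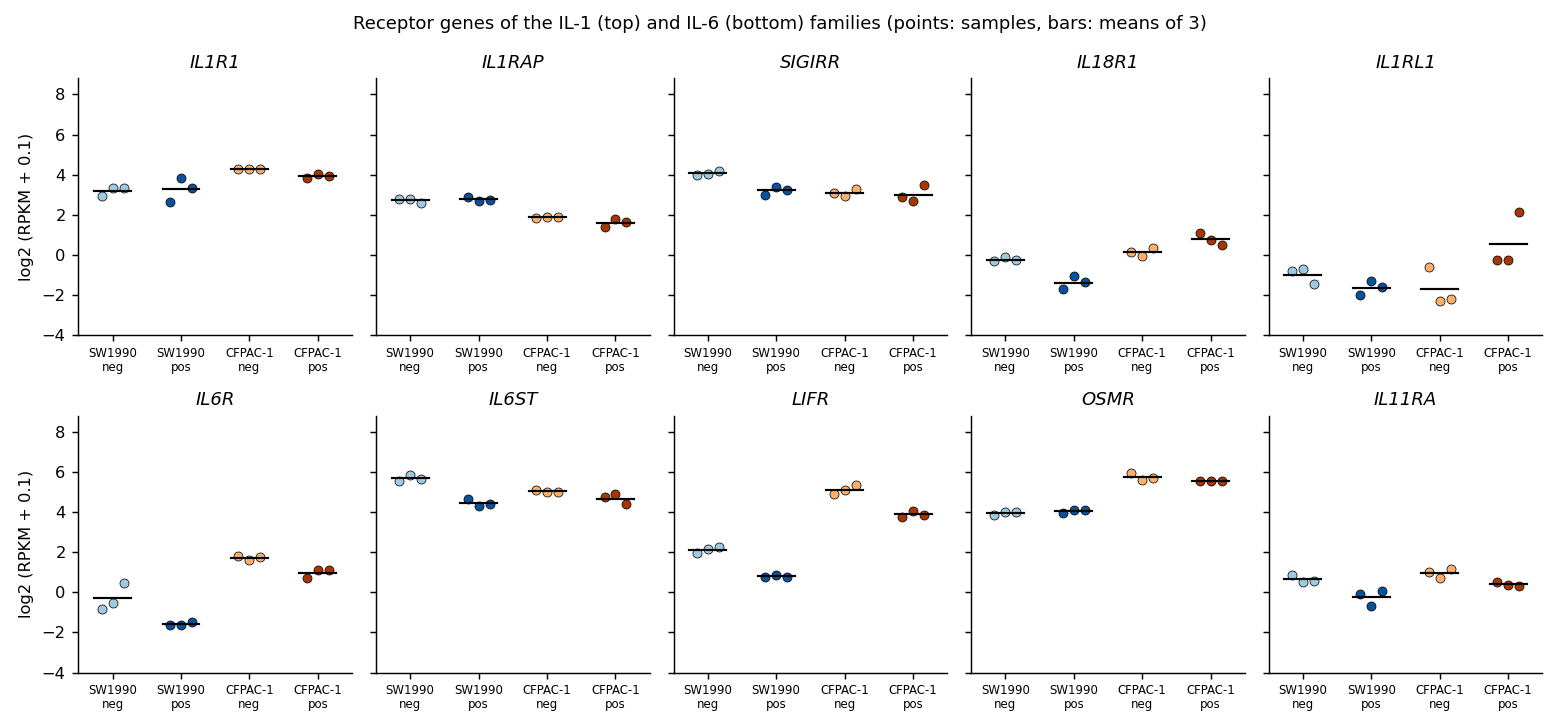
Panels plot receptor genes of the IL-1 family (top row) and the IL-6 family (bottom row) as log2 (RPKM + 0.1) in the 12 samples, with points for samples and bars for means of 3. *IL6ST* and *LIFR* are called lower in SW1990, *LIFR* also in CFPAC-1, and *IL1R1* and *OSMR* are not called between populations of either line.

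Across all pathway lists, 91 tested genes other than the members gave 5 calls higher and 17 lower in positive SW1990 cells, and 9 higher and 7 lower in positive CFPAC-1 cells. Over all genes, 4.59% were called higher and 7.48% lower in SW1990, and 5.65% and 4.13% in CFPAC-1. Ligands of the IL-6 family other than the members were few. *EBI3*, a subunit of interleukin-27, fell in SW1990, with 2.65, 2.91 and 2.98 RPKM in negative and 0.272, 1.24 and 0.993 RPKM in positive samples (-1.85, SE 0.42, adjusted p = 0.00584, limma). In CFPAC-1, *OSM* was called lower (-1.36, adjusted p = 0.0274) on 11 to 16 reads against 0 to 5.

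For genes of signal transduction, the shares called over all genes were 12.1% in SW1990 and 9.78% in CFPAC-1. Of 22 tested genes of interleukin-1 signalling and processing, none was called higher in positive cells of either line, while 3 were called lower in SW1990 and 1 in CFPAC-1. *NLRP1*, an inflammasome sensor, was the one called in both lines, with 2.87 to 5.95 RPKM in negative and 0.575 to 1.05 RPKM in positive SW1990 samples (-2.23, SE 0.27, adjusted p = 6.26e-05, limma), and with 5.92 to 6.52 and 1.34 to 2.01 RPKM in CFPAC-1 (-1.80, SE 0.27, adjusted p = 0.000436). *IRAK3*, an inhibitory kinase-like protein of the receptor complex, and *IRAK2*, a signalling kinase-like protein, were called lower in SW1990 (-1.04, adjusted p = 0.000193, and -1.03, adjusted p = 0.000439). Both were lower in every positive CFPAC-1 sample as well, under the 2-fold threshold (-0.51, adjusted p = 0.0165, and -0.50, adjusted p = 0.0282). Of 12 genes of JAK-STAT3 signalling, *STAT5A* was lower in positive cells of both lines (-1.09, adjusted p = 0.00825, and -1.45, adjusted p = 0.00146). *SOCS3*, a feedback inhibitor of IL6ST receptors that STAT3 induces, rose from 28.1, 23.5 and 27.6 RPKM to 46.3, 57.0 and 57.0 RPKM in SW1990 (1.01, SE 0.20, adjusted p = 0.00235) and was not called in CFPAC-1 (-0.45, adjusted p = 0.0975).

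Of 25 tested NF-kB target genes, 1 was called higher and 5 lower in positive SW1990 cells, and 4 higher in positive CFPAC-1 cells. The shares over all genes were 4.59% higher and 7.48% lower in SW1990 and 5.65% and 4.13% in CFPAC-1. The median log2 fold changes of the list were -0.07 and 0.08, and 19 genes in SW1990 and 21 in CFPAC-1 were not called. The chemokine genes *CXCL1*, *CXCL6* and *IL8* were called in opposite directions, lower in positive SW1990 and higher in positive CFPAC-1 cells. Besides these, *PTGS2* and *SOD2* were lower and *LCN2* higher in SW1990, and *CXCL5* was higher in CFPAC-1. The difference between lines was called positive for 2 of the 25 and negative for 6, and was not called for 17. Among all genes, 5.33% were called positive and 8.84% negative. *CXCL1*, a neutrophil chemokine, was at 182, 229 and 190 RPKM in negative and at 24.9, 47.9 and 34.2 RPKM in positive SW1990 samples (-2.53, SE 0.27, adjusted p = 2.14e-05, limma). In CFPAC-1, *CXCL1* was at 11.4, 9.15 and 9.05 RPKM in negative and at 77.4, 51.9 and 35.8 RPKM in positive samples (2.41, SE 0.27, adjusted p = 7.84e-05). The difference between the lines was itself called, at -4.94 (SE 0.38, adjusted p = 7.85e-06). *CXCL6* did likewise, with -3.70 in SW1990 and 1.81 in CFPAC-1 and a difference of -5.50 (SE 0.45, adjusted p = 1.02e-05). *PTGS2*, the inducible cyclooxygenase, fell from 14.3, 37.1 and 41.2 RPKM to 0.941, 4.06 and 1.52 RPKM in SW1990 (-3.87, SE 0.46, adjusted p = 6.01e-05), and *CXCL5* rose in CFPAC-1, with 28.0 to 53.5 RPKM in negative and 165 to 286 RPKM in positive samples (2.69, SE 0.29, adjusted p = 6.67e-05). The *CXCL* genes are close relatives among which reads could be shared, depending on the counting.

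STAT3 target genes were split. Of 14 tested, 2 were called higher (*LRG1* and *SOCS3*) and 1 lower (*BCL3*) in positive SW1990 cells, and 2 higher (*SAA1* and *SAA2*) and 3 lower (*FGB*, *HP* and *SERPINA3*) in positive CFPAC-1 cells. Among all genes, 4.59% were called higher and 7.48% lower in SW1990, and 5.65% and 4.13% in CFPAC-1. *LRG1*, a secreted glycoprotein of the acute phase, was at 1.34, 2.15 and 3.49 RPKM in negative and at 5.21, 13.5 and 12.9 RPKM in positive SW1990 samples (2.11, SE 0.37, adjusted p = 0.00106, limma). Its positive samples were all lower in CFPAC-1 but missed the p threshold (-1.08, adjusted p = 0.0390), and the difference between the lines was called (3.19, SE 0.52, adjusted p = 0.000986). *BCL3*, an atypical inhibitor-of-kappa-B protein, fell by 1.08 on the log2 scale in SW1990 (adjusted p = 0.000119). *SAA2*, an acute-phase apolipoprotein whose reads could be shared with its near-copy *SAA1*, rose in CFPAC-1, with 0.215 to 1.04 RPKM in negative and 1.16 to 2.58 RPKM in positive samples (1.80, SE 0.41, adjusted p = 0.00576). *HP*, haptoglobin, had 9, 6 and 2 reads in negative and 1, 0 and 0 in positive CFPAC-1 samples.

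**Figure D5:**
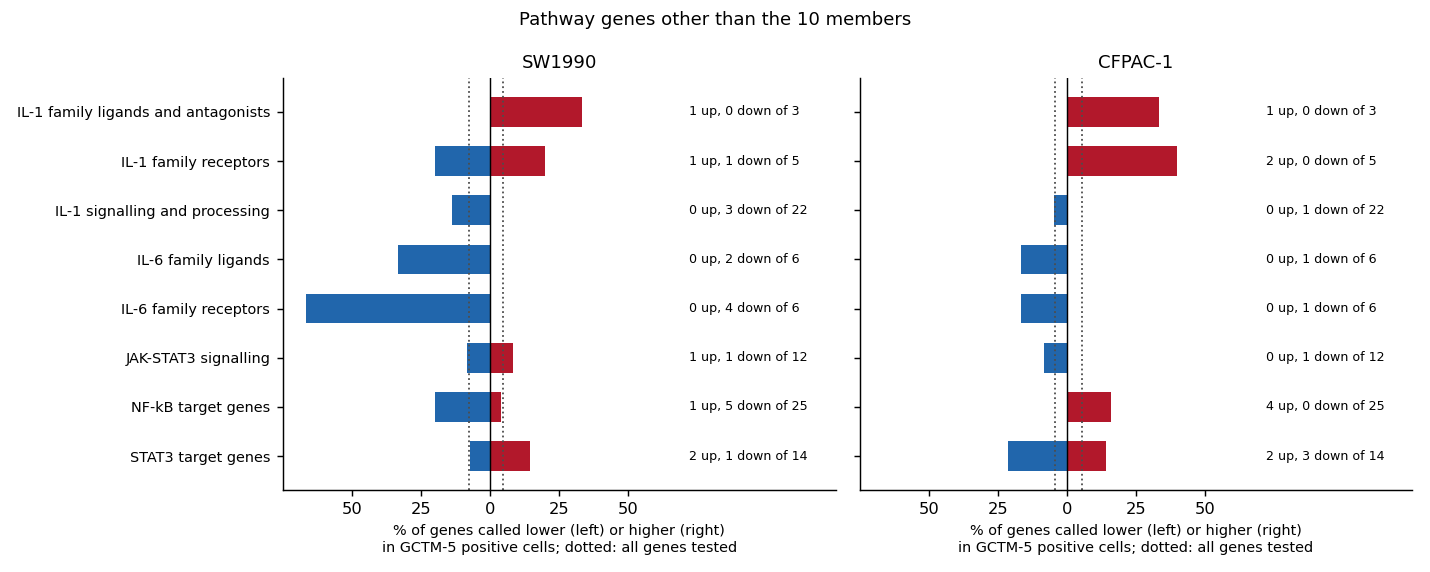
Bars give, for each pathway list without the 10 members, the percentage of tested genes called lower (blue, to the left) or higher (red, to the right) in GCTM-5 positive cells, with the numbers beside them and dotted lines at the shares over all genes tested. The 6 IL-6 family receptors have 4 calls lower in SW1990, and NF-kB targets have 5 calls lower in SW1990 and 4 higher in CFPAC-1.

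The genes with the most similar pattern over the 12 samples were sought for each member among 13267 genes with a mean of at least 1 RPKM, as the smallest root mean square difference of centred log2 values. The closest match was that of *IL1RAP* with *ZNF48* (0.08), followed by *IL18* with *LOC100861402* (0.10) and *LIF* with *SPTB* (0.15). *IL11* was nearest to *RIMKLB* (0.26), *IL6R* to *ATXN1* (0.27), *IL6* to *C9orf30-TMEFF1* (0.35) and *IL33* to *SIRPB1* (0.43). The members with the widest ranges had looser matches, *IL1B* with *SPON1* (0.54), *IL1A* with *FHL1* (0.65) and *IL1RN* with *ALPP* (0.87). *ALPP*, placental alkaline phosphatase, had group means of 2.64 and 13.3 RPKM in SW1990 (negative, then positive) and of 0.0106 and 0.346 RPKM in CFPAC-1. All 12 samples share the division into 2 lines, and nothing about shared function was tested.

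Markers of cell types bore on what the populations were. All 6 duct epithelial markers (*EPCAM*, *CDH1*, *KRT7*, *KRT8*, *KRT18* and *KRT19*) were at 1 RPKM or more in every group, and their sum was 1595.1 to 1941.8 RPKM in negative and 4360.4 to 4841.4 RPKM in positive SW1990 samples and 5411.1 to 6173.2 and 6676.0 to 8162.4 RPKM in CFPAC-1. Within each line their sum thus moved with *IL1RN*, though in CFPAC-1 the means of *EPCAM* and *KRT19* were lower in positive cells. Between the lines, the sum was higher in CFPAC-1, where *IL1RN* was lower. The part of these markers in the *IL1RN* result was not tested. Of 10 leukocyte markers, *CD3D*, *MS4A1* and *TYROBP* were at 0 in all samples and 4 or 5 were at 0 in each group, while *CD68* was at 1 RPKM or more throughout and *CD14* in 3 of 4 groups. Their sum was 35.3 to 48.7 and 15.6 to 33.5 RPKM in negative and positive SW1990 and 118 to 136 and 112 to 167 RPKM in CFPAC-1. It was thus higher in the line with less *IL1A* and *IL1B*, but most of it was *CD68*. The means of *CD68* were 42.0 and 21.7 RPKM in negative and positive SW1990 and 119.9 and 138.3 RPKM in CFPAC-1. *PTPRC* had at most 3 reads in any sample. The 10 fibroblast markers summed to 14.2 to 24.9 RPKM in negative and 4.96 to 6.40 RPKM in positive SW1990 samples, moving with *IL33* and *IL6R* in that line. *LUM* was the largest part of this, with means of 13.2 and 2.43 RPKM. In CFPAC-1 the sum was lower, at 2.92 to 3.51 RPKM, whereas *IL6R* was higher than in SW1990. The part of these markers was not tested.

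The annotation bears on 2 members. In GENCODE 44 mapped to GRCh37, exons of *IL6* share 428 bases with *IL6-AS1* and 46 with *STEAP1B* on the opposite strand, and those of *LIF* share 86 with *LIF-AS1* and 83 with *LIF-AS2*. The labels name a strand-specific kit and the paper one that is not named so, and the use of strand in counting is not given in the sources used here, so reads of these partners could be counted for *IL6* and *LIF*.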

How the data were processed

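The 12 samples, 3 in each of 4 groups of sorted SW1990 or CFPAC-1 cells, were grouped by their labels. The deposited RPKM values were made by the authors with QuasR from reads aligned to hg19/GRCh37, divided by library size and gene length, and each column is named by its sample's title. The annotation, the use of strand, the treatment of reads matching several genes and the QuasR version are not given in the sources used here. The 10 members, the pathway and marker lists and the tests were chosen with earlier results of these data known.

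Whole reads were recovered from the RPKM for all 19654 genes above 0, to within 0.01 of a read, and summed to 99.93% to 99.96% of library totals. They served for read numbers, for bounds at 3 reads per library, for exact (Clopper-Pearson) intervals and for voom. Intervals and limits cover counting error only, since PCR copies are not independent molecules.

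Genes with a mean of at least 0.1 RPKM (16236) were fitted as 4 group means on log2 (RPKM + 0.1), using limma 3.58.1 under R 4.3.3, with eBayes moderation along an intensity trend. TCC, which the paper names, was not used. The script was tested on simulated data. Alternatives were pseudocounts of 1 and 0.01, no filter or a mean of at least 1 RPKM, centring on the sample median, quantile normalization, no intensity trend, only the groups compared, voom on recovered reads, a replicate block, an adjusted p under 0.05 with no fold threshold, and each sample left out in turn. All members are named. From each pathway list, genes called alike in both lines and the 2 with the largest called change per line are named, and *IRAK2*, *IL31RA*, *IL6ST*, *IL1R1*, *OSMR* and other genes given in counts were added after their values were seen. A gene that this rule names is not reported here. Sequences are from RefSeq (GRCh38.p14), searched over the 250 bases before each start, and coordinates of genes are from GENCODE 44 mapped to GRCh37. Python 3.11.15, pandas 2.3.3, numpy 2.4.6 and matplotlib 3.10.9 were used.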

Additional observations from a re-analysis of the deposited data

Results flagged for a closer look

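The change between GCTM-5 positive and negative cells differed between the lines, by the interaction test in limma, for 4 members other than *IL33*. *IL33* is left out because both CFPAC-1 populations were at or under 3 reads per sample. The values are the SW1990 change minus the CFPAC-1 change on the log2 scale, -2.0 for *IL1A* (adjusted p = 0.00306), -2.0 for *IL1B* (adjusted p = 0.0349), -2.42 for *IL6* (adjusted p = 0.00673) and 1.22 for *LIF* (adjusted p = 0.00699). *IL1A* and *IL1B* rested on 13 and 9 reads in all in negative CFPAC-1 samples, and *IL6* on 62. The difference of *IL1B* was called under 5 of 21 alternatives. That of *IL1A* was -0.56 (adjusted p = 0.1) and not called with a pseudocount of 1. Those of *IL6* and *LIF* were called under all 21. Over all genes, 14.2% were called in this test. No cause was tested.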

How the results depend on the processing

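Of 1048 values of members under the alternatives, 994 kept their direction and their side of the thresholds, 34 lost the call, 2 gained it and 18 changed sign. Against 3 members called in SW1990, 5 had an adjusted p under 0.05 with no fold threshold. In that line 2 were called with a pseudocount of 1, with quantile normalization or with only the groups compared. Against 4 in CFPAC-1, 2 were called with a pseudocount of 1 and 2 with only the groups compared in the fit. Between positive cells, 5 were called with a pseudocount of 1, against 7. With 1 sample left out, 3 to 4 members were called in SW1990, 3 to 4 in CFPAC-1, 8 between negative cells, 7 between positive cells and 4 to 5 in the difference between lines. Signs changed for values near 0. The SW1990 change of *IL1A* was -0.04 with quantile normalization and -0.09 to 0.24 with 1 sample left out, that of *IL1RAP* was -0.02 to 0.09, and the CFPAC-1 change of *IL11* was -0.01 to 0.60. The difference between lines of *IL1RN* was 1.51 (adjusted p = 0.0341) with a pseudocount of 1, 0.13 after centring, 0.01 with quantile normalization and -0.58 to 0.52 with 1 sample left out. That of *IL6R* was 0.06 with a pseudocount of 1, and that of *IL11* was -0.10 to 0.51 with 1 sample left out. The cause was not tested.

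Deviations of samples with the same replicate number had weak correlations, of 0.185, 0.0163 and 0.116 in SW1990 and -0.0195, 0.00126 and -0.0593 in CFPAC-1. Pairs of unlike number ran from -0.254 to 0.162 in SW1990 and from -0.0326 to 0.0423 in CFPAC-1. All same-number values were positive in SW1990, so these values cannot exclude pairing there. The main fit did not pair samples. With the replicate block, 3 members were called in SW1990, 3 in CFPAC-1 and 4 in the difference between lines, and *IL1B* had 1.54 (adjusted p = 0.0342) in CFPAC-1 and -2.0 (adjusted p = 0.0577) in the difference. Depth limits *IL1A*, *IL1B*, *IL1RN* and *IL33* most in CFPAC-1, where negative samples held 13, 9, 22 and 0 reads of them in all.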
